A study of Homo sapiens with 18 samples.

Results

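Genes without a single count in untreated cells and with reads after 48 h of doxorubicin were collected from MDA-MB-231 cells, a breast cancer line of the basal subtype. The members were chosen by a threshold on 4 libraries. An autosomal gene had to have 0 counts in both untreated libraries of the GFP line and at least 10 counts in both GFP libraries at 48 h, and symbols starting with LINC were left out. Of 60603 genes in the count tables, 57577 lay on autosomes, 33155 of these had 0 counts in both untreated GFP libraries, and 267 met the rule. A further 16 met the thresholds and were left out for their LINC symbol.

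The GFP and ZMYND8 lines each carried a doxycycline-inducible lentiviral construct (pInducer20, G418 selection), were a single stable line per construct, and received 250 ng/mL doxycycline throughout, also in the libraries without doxorubicin. Each line has 2 libraries without the drug, 2 from 6 h in 0.6 µM doxorubicin and 2 from 48 h. In the transient system, untreated control cells, cells given 0.6 µM doxorubicin for 48 h, and cells that, by their label, received FLAG-ZMYND8 before the drug had 2 libraries each. The treatment text names an empty vector as the counterpart of FLAG-ZMYND8, and the labels do not say which libraries carried it. The labels describe the replicates as biological, without naming separate cultures or days. Poly(A) RNA was counted per gene, and values below are raw counts unless another unit is given.

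Doxorubicin slips between DNA bases and traps topoisomerase II on DNA, which leaves double-strand breaks, and it also displaces histones from chromatin. In a differentiated or cancer cell, genes of other lineages are held silent by closed chromatin and, for many germ cell genes, by methylation of CpG dinucleotides at the promoter. ZMYND8 is a reader of acetylated and methylated histones that takes part in transcriptional control at promoters, enhancers and DNA breaks. These libraries measure polyadenylated RNA only, and no chromatin mark or methylation was measured in them.

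The promoters of 6 members are printed, since later results turn on these genes. BRDT is a testis bromodomain protein that was silent in untreated GFP cells and not in untreated ZMYND8 cells. DAZL is an RNA-binding protein of germ cells, and SYCP1 builds the synaptonemal complex of meiosis. KRT9, the keratin of palm and sole skin, reached the highest count of the called members in the ZMYND8 line. CLDN18 is a tight junction protein of stomach and lung. ABCB1 encodes the drug efflux pump P-glycoprotein. Each sequence is the RefSeq window (GRCh38.p14, the build hg38 of the counts) from 250 bases before to 50 bases after the gene start, 5′ to 3′ on the gene's strand, with the CpG dinucleotides in capitals.
BRDT, chr1:91949121-91949420, plus strand: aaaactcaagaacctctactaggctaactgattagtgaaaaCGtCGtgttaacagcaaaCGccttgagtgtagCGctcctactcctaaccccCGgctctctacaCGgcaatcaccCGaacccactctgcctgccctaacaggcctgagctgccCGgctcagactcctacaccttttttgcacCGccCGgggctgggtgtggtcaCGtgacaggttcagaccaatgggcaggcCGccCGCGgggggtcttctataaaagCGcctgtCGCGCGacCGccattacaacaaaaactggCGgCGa
DAZL, chr3:16605374-16605673, minus strand: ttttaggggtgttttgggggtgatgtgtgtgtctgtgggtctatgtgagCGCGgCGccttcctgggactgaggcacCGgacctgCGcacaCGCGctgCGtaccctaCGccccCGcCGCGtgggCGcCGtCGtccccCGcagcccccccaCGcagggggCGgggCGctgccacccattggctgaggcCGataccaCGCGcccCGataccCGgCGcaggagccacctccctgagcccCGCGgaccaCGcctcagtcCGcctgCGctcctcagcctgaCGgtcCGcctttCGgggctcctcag
SYCP1, chr1:114854613-114854912, plus strand: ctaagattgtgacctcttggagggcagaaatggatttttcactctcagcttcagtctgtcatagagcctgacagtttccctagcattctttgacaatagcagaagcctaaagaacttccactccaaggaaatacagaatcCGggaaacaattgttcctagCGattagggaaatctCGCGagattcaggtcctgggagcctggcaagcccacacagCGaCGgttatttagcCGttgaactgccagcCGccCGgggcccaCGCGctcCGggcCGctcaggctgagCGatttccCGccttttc
KRT9, chr17:41572010-41572309, minus strand: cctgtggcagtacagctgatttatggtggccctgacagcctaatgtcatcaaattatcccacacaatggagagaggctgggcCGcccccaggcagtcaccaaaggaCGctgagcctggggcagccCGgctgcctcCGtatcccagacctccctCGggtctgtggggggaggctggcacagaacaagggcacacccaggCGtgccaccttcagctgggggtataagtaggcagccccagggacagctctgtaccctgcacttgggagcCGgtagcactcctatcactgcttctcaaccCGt
CLDN18, chr3:137998566-137998865, plus strand: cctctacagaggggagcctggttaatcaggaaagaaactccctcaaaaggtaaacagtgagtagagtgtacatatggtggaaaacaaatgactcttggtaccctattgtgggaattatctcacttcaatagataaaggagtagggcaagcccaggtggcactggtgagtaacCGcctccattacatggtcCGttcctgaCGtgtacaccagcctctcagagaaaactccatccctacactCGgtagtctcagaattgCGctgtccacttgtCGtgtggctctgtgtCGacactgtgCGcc
ABCB1, chr7:87713246-87713545, minus strand: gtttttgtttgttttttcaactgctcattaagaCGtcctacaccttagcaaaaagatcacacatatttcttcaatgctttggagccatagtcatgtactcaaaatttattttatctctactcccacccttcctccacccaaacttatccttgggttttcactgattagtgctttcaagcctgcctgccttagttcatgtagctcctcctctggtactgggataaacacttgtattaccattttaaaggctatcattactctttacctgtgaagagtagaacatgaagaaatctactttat
The 300 bases held 33 CpG dinucleotides in DAZL, 21 in BRDT and 15 in SYCP1. They held 8 in KRT9, 8 in CLDN18 and 1 in ABCB1, so members of the same rule ranged from CpG-dense to nearly CpG-free windows. Other starts of the same genes were not examined, so a window does not describe every promoter of its gene.

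The cells expressed the genes fixed as present in MDA-MB-231 but also some fixed as low or absent, and ZMYND8 was higher in the line that carried its transgene. All 8 genes fixed as present in this line, among them VIM and CD44, had at least 5308 counts in every ZMYND8-line library. Of 7 genes fixed as low or absent, KRT5 had at most 2 counts in these libraries, while EPCAM had 162 to 234 and GATA3 275 to 501 counts. CDH1 had 62 and 111 counts untreated and 494 and 509 at 48 h, ESR1 had 8 and 15 and then 17 and 15, and PGR and FOXA1, on the same list, were members. Of the 6 tested genes of that list, 3 were called up at 48 h in the ZMYND8 line. ZMYND8 stood at 829 to 1001 CPM (counts scaled to library size, with TMM factors) in the ZMYND8 line and at 93.8 to 209 CPM in the GFP line. The inducible libraries held 18300628 to 23724398 counts. In the transient system the ZMYND8-labelled doxorubicin libraries had 125 and 160 CPM of ZMYND8, below the 199 and 219 CPM of the controls. There, doxorubicin replicate 2 held 24713822 counts against 5729294 to 5972396 in the other 5 libraries. It also differed from replicate 2 of the ZMYND8-labelled doxorubicin libraries by little: their chi-square over its degrees of freedom was 1.39, against 9.71 to 55.6 in the other 14 pairs. These 2 libraries carry different labels and were kept apart, so both transient comparisons are given by library.

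The selected values were low. At 48 h in the GFP line the members had 10 to 69 counts, and the median of their mean counts was 16.5. Per length, the median level was 0.152 RPKM (CPM per kilobase of exon, with the TMM-scaled library size; range 0.0216 to 1.18), whereas the median over all 18801 tested genes was 2.82 RPKM. The highest count belonged to PLEKHG7, a gene chosen here after its values were seen, with 63 and 69 counts. At the edge of the rule, 45 members had exactly 10 counts in the lower library, and 51 silent genes had 9 there and stayed outside. The mirrored rule, at least 10 counts in both untreated libraries and 0 in both at 48 h, found 0 genes. Because these libraries chose the members, none of these values is a test.

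The members with the highest level per length at 48 h in the GFP line had 562 to 3830 bases of exon, below the median of the members. Among these 12 were the lncRNAs ENSG00000287961 (1.18 RPKM), ENSG00000260798 (1.12 RPKM) and LRRC7-AS1 (0.844 RPKM). The protein-coding genes among them were KRT9 at 0.653 RPKM, MMP12, a macrophage elastase, at 0.62 RPKM and COL10A1, the collagen of hypertrophic cartilage, at 0.609 RPKM. Lower among the 12 were the pigment signal ASIP (0.556 RPKM) and the muscle and bone hormone OSTN (0.539 RPKM). COL10A1 had 53 and 55 counts in the GFP line at 48 h, 0 and 4 in untreated ZMYND8 cells and 37 and 30 at 48 h in the ZMYND8 line. MMP12 had 23 and 31 counts at 48 h in the GFP line, 2 and 0 in untreated ZMYND8 cells and 14 and 15 after 48 h. ENSG00000251205 (0.786 RPKM), ENSG00000267033 (0.825 RPKM) and the pseudogene SNX18P7 (0.716 RPKM) were also among the 12.

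The ZMYND8 line, whose libraries were outside the rule, showed the same genes at 48 h. In bulk RNA, fewer cells with a transcript and less RNA per cell cannot be told apart. Every member had a count in at least 1 of its 2 libraries at 48 h, and 101 members had at least 10 counts in both. Before treatment, 172 members had 0 counts in both untreated ZMYND8 libraries and 252 had at most 3 counts in each. A gene was called up at a Benjamini-Hochberg adjusted p of at most 0.05 over all 18801 tested genes in edgeR's quasi-likelihood test, and a log2 fold change of 1.5 or more. By that rule 223 of the 250 tested members were up at 48 h against untreated ZMYND8 cells, beside 9.73% of all tested genes, and 0 were down, beside 2.28%. The median log2 fold change was 5.29 over the tested members and 0.05 over all tested genes. Of the 250, 241 reached the filter level in both GFP libraries at 48 h, which are not in this contrast, and 215 of those were called up. Without the filter, 230 of all 267 members were called up. Both 48 h libraries lay above both untreated libraries in 257 of the 267 members, against 42.2% of all tested genes.

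**Figure D1:**
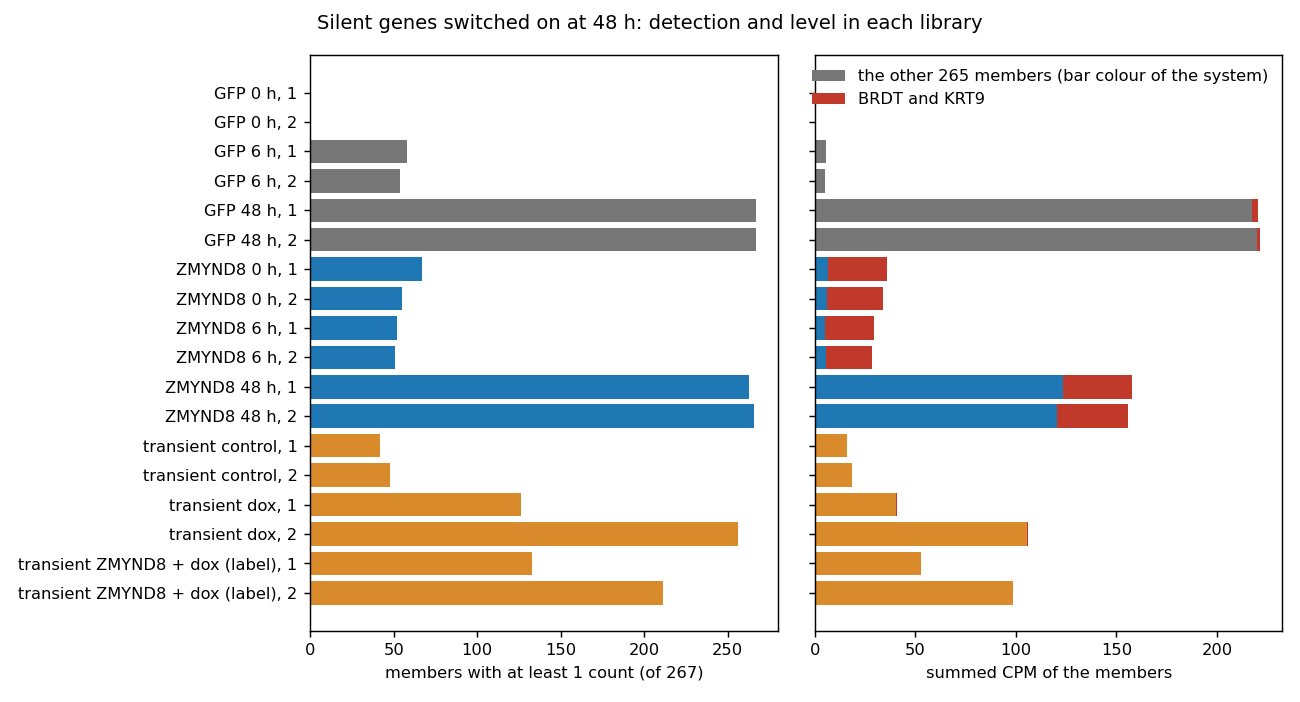
Members with at least 1 count (left) and their summed TMM-scaled CPM (right) in each of the 18 libraries, labelled by group and replicate; BRDT and KRT9 are drawn in red. The GFP libraries at 0 h and 48 h are fixed by the rule, and the ZMYND8 libraries rise from 67 and 55 members without doxorubicin to 263 and 266 members at 48 h.

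Among named genes of the ZMYND8 line, KRT9 had the smallest adjusted p. It had 5 and 9 counts in untreated cells, 16 and 5 at 6 h, and 323 and 302 at 48 h, a 37.8-fold rise (95% counting interval 22.4 to 69.6; adjusted p = 3.12e-13, edgeR). The GFP line had 41 and 28 counts at 48 h, so both ZMYND8 libraries exceeded both GFP libraries. LRRN3, a neuronal leucine-rich repeat protein, had 4 and 3 counts before and 44 and 61 counts after 48 h, 12.7-fold higher (interval 5.96 to 32.4; edgeR adjusted p = 4e-06). COL10A1 rose 14.2-fold (interval 5.29 to 53.6; edgeR adjusted p = 1.62e-05). Intervals and bounds cover counting error only.

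Several of the strongest calls were genes without any count in untreated ZMYND8 cells, for which the fold is a lower bound against 3 counts over both libraries. LRRC19, a kidney and gut receptor with leucine-rich repeats, had 37 and 46 counts at 48 h and was at least 23.4-fold higher (edgeR adjusted p = 1.78e-07). DDX4, the VASA helicase of germ cells, had 23 and 29 counts and was at least 14.7-fold higher (edgeR adjusted p = 3.7e-06). OSTN with 30 and 19 counts was at least 13.8-fold higher, and the lncRNA PCAT19 with 24 and 24 counts at least 13.6-fold higher. CLDN18 had 17 and 25 counts, CUX2, a homeobox factor of upper-layer cortical neurons, 20 and 21, the synaptic protein gene RIMS4 22 and 19, and the intestinal and liver sterol exporter ABCG8 21 and 20. Each of these 4 was at least 11.6-fold higher, with edgeR adjusted p from 9.4e-06 to 1.53e-05. LRRC7, a postsynaptic scaffold protein, had 1 and 0 counts before and 31 and 31 after, a ratio of 52.5 with an interval of 9.09 to 2108. SUCNR1, the succinate receptor, had 0 and 1 counts before and 29 and 21 after, a ratio of 42.4 with an interval of 7.26 to 1706.

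The 27 tested members that were not called up were mainly genes of few counts in the ZMYND8 line. SYT6, a synaptotagmin, had 0 and 2 counts at 48 h, and SPATA16, a protein of the sperm acrosome, had 2 and 1. For these and for SLC17A8, a vesicular glutamate transporter with 2 and 3 counts, a change was not detectable at this depth. CD53, a leukocyte tetraspanin, had 2 and 0 counts before and 5 and 3 after (edgeR adjusted p = 0.238). ENSG00000267033 had 1 and 3 counts before and 5 and 11 after (edgeR adjusted p = 0.113).

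BRDT and TRPC4 were silent in the untreated GFP line and not in the untreated ZMYND8 line. BRDT had 522 and 625 counts in untreated ZMYND8 cells, 481 and 431 at 6 h, and 519 and 526 at 48 h. In CPM this was 29.1 and 27.4 untreated against 21.1 and 22.4 at 48 h, so both treated libraries lay below both untreated ones. The log2 difference was −0.38 ± 0.09 (SE, n = 2 libraries per group; edgeR adjusted p = 0.00129), past the p threshold and short of the fold cutoff. In the GFP line BRDT had 0 and 0 counts untreated, 0 and 0 at 6 h, and 22 and 15 at 48 h. TRPC4, a cation channel, had 10 and 22 counts in untreated ZMYND8 cells and 30 and 34 at 48 h (edgeR adjusted p = 0.0948). These were the only members with at least 10 counts in both untreated ZMYND8 libraries. BRDT alone supplied most of the members' summed level in untreated ZMYND8 cells. That sum was 35.7 and 33.7 CPM with all members, and 6.31 and 6 CPM over the other 265 once BRDT and KRT9 were left out. At 48 h the same 265 members summed to 123 and 120 CPM in the ZMYND8 line. Each construct was carried by 1 line, so a difference between lines and an effect of ZMYND8 cannot be told apart.

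At 48 h most members stood lower in the ZMYND8 line than in the GFP line, which had chosen them. The median of the mean levels was 0.379 CPM in the ZMYND8 line and 0.711 CPM in the GFP line, and the median ratio was 0.503. Mean CPM was higher in the GFP line for 238 members and in the ZMYND8 line for 29. Both ZMYND8 libraries lay below both GFP libraries in 201 members and above them in 11, among these KRT9, BRDT, LRRN3, LRRC19 and TRPC4. The GFP libraries at 48 h selected the genes by a minimum count, so the lines are not on equal terms here and these values are a description. The same rule applied to the ZMYND8 line, 0 counts untreated and at least 10 in both libraries at 48 h, found 116 genes. Of these, 57 were members, which is 49.1% of that list and 21.3% of the members. That list had a median of 0.624 CPM in the ZMYND8 line and 0.794 CPM in the GFP line at 48 h, and 77 of its 116 genes had the higher mean in the GFP line. Of its 59 other genes, 40 had a count in untreated GFP cells and 19 were silent there with under 10 counts in a GFP library at 48 h. The mirrored rule found 0 genes in the ZMYND8 line too.

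**Figure D2:**
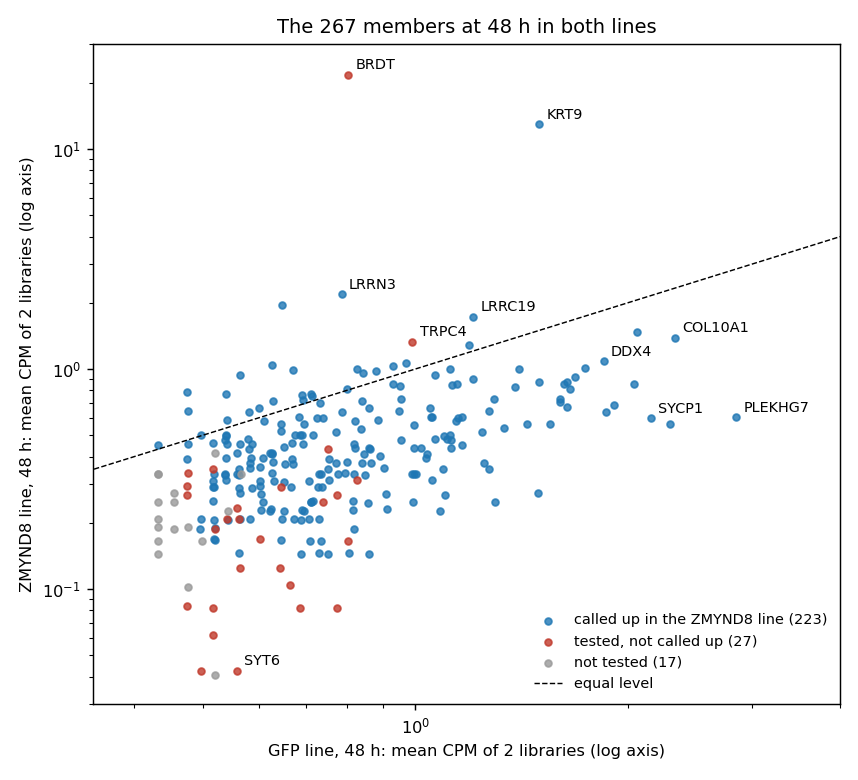
Mean CPM of each of the 267 members at 48 h in the GFP line (horizontal, log axis) and the ZMYND8 line (vertical, log axis), coloured by the call of 48 h against untreated in the ZMYND8 line. Most points lie below the dashed line of equal level, and BRDT and KRT9 stand far above it.

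After 6 h of doxorubicin the members were nearly as silent as before. In the GFP line, 180 members had 0 counts in both libraries at 6 h, 25 had a count in both, and the highest count was 7. No member reached 10 counts in both, and the 0 h to 6 h version of the rule found 0 genes in either line. SYNPO2L, a protein of the muscle Z-disc named here after its values were seen, had 6 and 4 counts at 6 h and 26 and 30 at 48 h. In the ZMYND8 line 0 of 250 tested members were called up at 6 h, beside 0.5% of all tested genes, and 0 had an unadjusted p of at most 0.05 with a higher level. DESeq2 called 0 up as well, with an adjusted p for 29 of the 250. Called down at 6 h were 2 members, beside 1.48% of all tested genes, both named after their values were seen. The count was 0 without untreated replicate 2, 0 without 6 h replicate 2, 1 without 6 h replicate 1, and 0 by DESeq2. The first, CDC20B, had 4 and 7 counts untreated, 1 and 0 at 6 h and 27 and 23 at 48 h. The second, ENSG00000287961, had 3 and 4 counts untreated, 0 and 0 at 6 h and 9 and 4 at 48 h. From 6 h to 48 h in the ZMYND8 line, 223 of the 250 tested members were called up, beside 11.3% of all tested genes. The 6 h libraries enter both of these comparisons, and the 48 h libraries are shared with the comparison against untreated cells.

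Germ cell and meiosis genes gave 10 members. Of 112 autosomal genes on the germ cell list, 66 were silent in untreated GFP cells, and the 10 members were 15.2% of these, beside 5.45% of all silent protein-coding genes. In the ZMYND8 line 8 of the 10 were called up at 48 h, beside 89.2% of all tested members. Over the whole list, members included, 16 of 44 tested genes were called up and 0 down. Among its 34 tested genes that were not members, 8 were called up and 0 down, beside 9.73% and 2.28% of all tested genes. The median log2 fold change of the list was 1.09. Membership rose with exon length, from 0.48% of silent protein-coding genes below 2000 bases to 25.9% from 8000 bases on. Lengths were not compared for this list or the other lists, so the part of length in their shares was not tested. SYCP1 had 47 and 53 counts at 48 h in the GFP line and, in the ZMYND8 line, 0 and 0 before and 19 and 10 at 48 h, at least 8.19-fold higher. DAZL had 24 and 51 counts in the GFP line and 17 and 17 in the ZMYND8 line at 48 h, at least 9.6-fold above the 0 counts of untreated cells. DAZL has relatives on the Y chromosome, and reads that map to several places were not counted. Whether this changed the DAZL counts was not tested. TEX15, needed for meiotic recombination and transposon silencing, had 31 and 18 counts in the GFP line and 19 and 26 in the ZMYND8 line. TDRD1, a Tudor protein of the piRNA pathway, had 15 and 17 and then 12 and 12 counts. BOLL, of the DAZ family, had 21 and 10 counts in GFP cells and 12 and 12 in ZMYND8 cells at 48 h. NLRP5, an oocyte protein, had 12 and 12 counts and 7 and 7 counts in the same groups, and MEI4, a factor for meiotic DNA breaks, had 14 and 21 counts and 5 and 2 counts. Apart from BRDT, the germ cell members had 0 counts in both untreated libraries of each line. The 5 male germ cell markers summed to 0.168 and 0.219 CPM in untreated ZMYND8 cells and 1.18 and 1.32 CPM at 48 h, nearly all of the 48 h value from DDX4, itself a member. TNP1 had 0 counts in all 12 inducible libraries, PRM1 and PRM2 had no more than 2 counts at 48 h, and SYCP3 had 3 and 5 and then 4 and 2.

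Ion channel and synapse genes gave 13 members, from the largest of the 9 lists. The list held 243 autosomal genes, of which 105 were silent, and 12.4% of these were members, beside 5.45% of all silent protein-coding genes. In the ZMYND8 line 9 of the 12 tested members were called up at 48 h, beside 89.2% of all tested members. Over the list, members included, 51 of 131 tested genes were called up and 5 down. Of the 119 that were not members, 42 were called up and 5 down, beside 9.73% and 2.28% of all tested genes. The median log2 fold change of the list was 1.21. The 5 neuron markers summed to 2.96 and 3.15 CPM in untreated ZMYND8 cells and 6.06 and 6.34 CPM at 48 h. Most of it came from SNAP25, with 33 and 43 and then 85 and 107 counts. RBFOX3 had 2 and 2 and then 32 and 12 counts, and SLC17A7 6 and 6 and then 18 and 13. SYN1 had 1 and 15 and then 8 and 11, and GRIN1 11 and 6 and then 6 and 6. Of these 5 neuron markers 1 was called up and 0 down. Their part in the channel genes was not tested. KCND3, an A-type potassium channel of heart and brain, had 28 and 34 counts in GFP cells and 12 and 14 in ZMYND8 cells at 48 h. The sodium channel gene SCN1A had 11 and 23 counts and 7 and 7 counts in these groups. The NMDA receptor subunit GRIN2B had 20 and 20 and then 9 and 9 counts, and GRIN3A had 12 and 10 and then 13 and 9. Values were similar for the inward rectifier KCNJ6 (19 and 19, then 10 and 11) and the GABA receptor subunit GABRP (12 and 12, then 7 and 9). The serotonin receptor subunit HTR3B had 18 and 16 counts in GFP cells and 5 and 3 in ZMYND8 cells, and the sodium channel subunit SCN3B had 12 and 12 and then 1 and 7. CACNA1C, the L-type calcium channel of heart muscle, did not pass the filter and had 15 and 10 counts in GFP cells and 8 and 3 in ZMYND8 cells at 48 h.

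Leukocyte genes contributed 7 members of 157 autosomal genes on their list, 86 of them silent in untreated GFP cells. Of the silent genes 8.14% were members, beside 5.45% of all silent protein-coding genes. In the ZMYND8 line 6 of the 7 members were called up at 48 h, beside 89.2% of all tested members. SIGLEC10, an inhibitory receptor of B cells and macrophages, had 17 and 14 counts at 48 h in the GFP line, and 0 and 2 untreated against 14 and 33 at 48 h in the ZMYND8 line. The scavenger receptor CD163 of macrophages had 19 and 21 counts in GFP cells and 13 and 8 in ZMYND8 cells. CD8B, a co-receptor of cytotoxic T cells, had 18 and 16 and then 8 and 8 counts, and the chemokine receptor CCR9 had 11 and 17 and then 5 and 12. TIGIT, a checkpoint receptor, had 14 and 18 and then 5 and 2 counts, and XCR1, a dendritic cell receptor, had 13 and 11 and then 4 and 4. Over the list, members included, 21 of 50 tested genes were called up and 2 down. Of the 43 that were not members, 15 were called up and 2 down, beside 9.73% and 2.28% of all tested genes. The median log2 fold change of the list was 1.21. Markers of immune cells moved in part with this group. The 5 T cell markers summed to 5.81 and 5.6 CPM in untreated ZMYND8 cells and 9.15 and 8.76 CPM at 48 h. Most of it came from CD8A, with 66 and 73 and then 182 and 166 counts. CD3E had 0 and 0 and then 3 and 3, and CD3D 0 and 1 and then 7 and 4. TRAC fell from 38 and 53 to 33 and 33 counts, and CD2 had 0 and 1 and then 0 and 0. Of 2 tested T cell markers 0 were called up. In the GFP line the T cell sum was 7.55 and 8.65 CPM untreated and 7.86 and 6.27 CPM at 48 h. The 3 B cell markers summed to 0.279 and 0.175 CPM before and 0.122 and 0.298 CPM at 48 h, and MS4A1 had at most 1 count in each of the 8 untreated and 48 h inducible libraries. The 5 myeloid markers summed to 5.53 and 5.16 CPM before and 6.55 and 6.13 CPM after, and CD14 had 347 to 400 counts in the GFP line and 42 to 74 in the ZMYND8 line in the same 8 libraries, with and without doxorubicin. In the ZMYND8 line CSF1R had 45 and 49 counts before and 35 and 24 after, and LYZ 8 and 13 and then 34 and 22. There ITGAM had 2 and 7 and then 13 and 21 counts, and CD68 2 and 3 and then 5 and 4. Of 4 tested myeloid markers 1 was called up.

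Developmental transcription factors, skin genes and drug efflux gave smaller groups. Of 216 autosomal transcription factor genes, 102 were silent and 5 were members, 4.9% beside 5.45% of all silent protein-coding genes, and all 5 were called up in the ZMYND8 line, beside 89.2% of all tested members. EBF1, a B cell factor, had 20 and 26 counts in GFP cells and 7 and 9 in ZMYND8 cells at 48 h. Its relative EBF2 had 17 and 23 and then 18 and 14 counts. IKZF1, the lymphoid factor Ikaros, had 17 and 15 and then 13 and 9. FOXA1, the pioneer factor of luminal breast cells, had 16 and 13 counts in GFP cells at 48 h, and 0 and 2 before against 7 and 27 after in ZMYND8 cells, 14.4-fold higher (interval 3.69 to 124). PGR, the progesterone receptor, which was on the marker list, had 16 and 19 counts in GFP cells and 7 and 8 in ZMYND8 cells at 48 h, at least 4.24-fold above 0 counts in untreated ZMYND8 cells. Over the transcription factor list, members included, 25 of 87 tested genes were called up and 1 down. Of the 82 that were not members, 20 were called up and 1 down, beside 9.73% and 2.28% of all tested genes.

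Skin genes counted 3 members of 84 silent genes (3.57%, beside 5.45% of all silent protein-coding genes), and KRT9 stood apart from the desmosomal cadherins DSC3 and DSG4. DSC3 had 15 and 20 counts in GFP cells and 16 and 3 in ZMYND8 cells at 48 h, and DSG4 had 11 and 18 and then 9 and 2, so their 2 ZMYND8 libraries differed from each other. All 3 skin members were called up, beside 89.2% of all tested members. Over the skin list, members included, 13 of 31 tested genes were called up and 2 down. Of the 28 that were not members, 10 were called up and 2 down, beside 9.73% and 2.28% of all tested genes. The same shares of all tested genes apply to the lists that follow. TNFSF8, the ligand of CD30, was the sole member among 35 silent cytokine and chemokine genes, with 13 and 14 counts in GFP cells and 11 and 7 in ZMYND8 cells. Over the cytokine list, TNFSF8 included, 18 of 37 tested genes were called up and 0 down, and 17 of the 36 that were not members. ABCB1 was the sole member among p53 targets and among the stemness, drug resistance and EMT genes that the paper names. Only 1 p53 target and 2 genes of the paper's list were silent in untreated GFP cells, so few could qualify. ABCB1 had 11 and 21 counts in GFP cells, and 0 and 0 before against 11 and 13 at 48 h in ZMYND8 cells, at least 6.78-fold higher (edgeR adjusted p = 0.000528). Of 43 tested p53 targets 4 were called up and 0 down, a share near the 9.73% of all tested genes. Among the 42 that were not members, 3 were called up. Of 11 tested genes of the paper's list 1 was called up, ABCB1 itself. No interferon-stimulated gene was a member, because 0 of the 58 autosomal genes on that list were silent in untreated GFP cells, and 17 of its 57 tested genes were called up and 1 down.

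**Figure D3:**
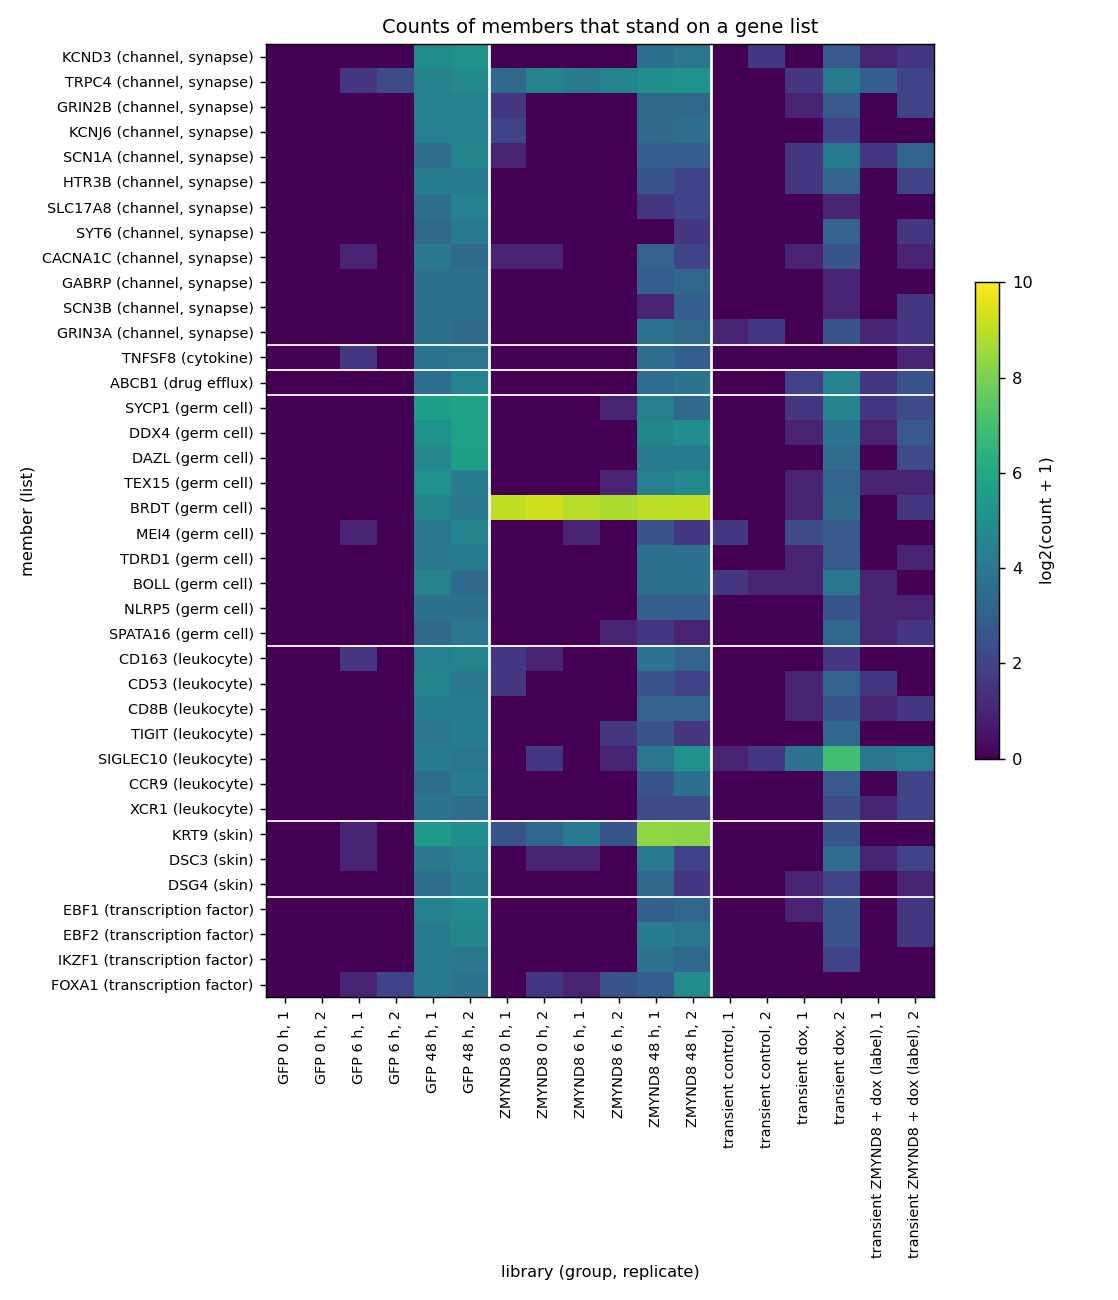
Counts, as log2(count + 1), of members that stand on a gene list, by library (columns, group and replicate) and grouped by list (rows). Most members are dark before treatment and at 6 h and lighter at 48 h in both lines. BRDT is bright in all 6 ZMYND8 libraries, and TRPC4 and KRT9 have counts in the ZMYND8 line before 48 h. SYT6, SPATA16 and SLC17A8 stay dark in the ZMYND8 line at 48 h.

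In the transient system the members were detected after doxorubicin at levels that differed between replicates. Controls held 84 and 105 counts over all members, doxorubicin libraries 234 and 2778, and ZMYND8-labelled doxorubicin libraries 312 and 601. Scaled to depth, this was 16 and 18.3 CPM in controls, 40.6 and 106 CPM with doxorubicin and 52.8 and 98.6 CPM in the ZMYND8-labelled doxorubicin libraries. All 4 treated libraries lay above both controls. The higher value of each treated pair came from replicate 2, and these are the 2 libraries that were close to each other above. With 2 libraries per group, the smallest two-sided p of an exact permutation test on such a sum is 0.333. At the lower depth of this system, 203 members had 0 counts in both controls. Of these, 29 had a count in all 4 treated libraries, and 3 members had none in any of the 6 libraries. Other silent protein-coding genes rose as well. Of those, 8% and 8.09% had a count in controls, 12.5% and 45.9% with doxorubicin, and 14.5% and 22.2% in the ZMYND8-labelled doxorubicin libraries. They summed to 136 and 132 CPM in controls, 179 and 342 CPM with doxorubicin, and 200 and 324 CPM for the ZMYND8 label.

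Only 2 members passed the filter in the transient system, and SIGLEC10 was called up in both comparisons, which share the controls. The call there needed a log2 fold change of 1 or more at an adjusted p of at most 0.05. Of 15697 tested genes, 2.51% were called up with doxorubicin, and 3.04% for the ZMYND8 label. SIGLEC10 had 1 and 2 counts in controls, 13 and 126 with doxorubicin (15.9-fold, interval 5.34 to 78.1; edgeR adjusted p = 0.0157) and 14 and 19 in the ZMYND8-labelled doxorubicin libraries (10.1-fold, interval 3.16 to 51.3; edgeR adjusted p = 0.0281). LRRC7 had 5 and 7 counts in controls, 7 and 103 with doxorubicin (edgeR adjusted p = 0.211) and 15 and 14 in the ZMYND8-labelled doxorubicin libraries (edgeR adjusted p = 0.317). With doxorubicin, 0 members were called up without doxorubicin replicate 2, without control replicate 1, or by DESeq2, which gave no adjusted p. For the ZMYND8 label, the count was 0 when any 1 of its 4 libraries was left out. Both genes overlap transcripts on the opposite strand, LRRC7 with the member LRRC7-AS1 and SIGLEC10 with SIGLEC10-AS1 and SIGLEC10-AS2. In antisense genes lying within exons of a sense gene, the median antisense to sense read density was 1.58 to 1.73 in the transient libraries against 0.0711 to 0.102 in the inducible libraries, so transient counts do not separate the strands in the same way. FOXA1 had 0 counts in all 6 transient libraries. KRT9 had 0 and 5 counts with doxorubicin, and ABCB1 had 3 and 21 with doxorubicin, 2 and 5 in the ZMYND8-labelled doxorubicin libraries and 0 in both controls.

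By class, the members were protein-coding far more often than silent genes in general. GENCODE gene types gave 233 protein-coding genes, 26 lncRNAs and 8 pseudogenes among the members. RefSeq, matched by symbol and chromosome, gave 232 protein-coding genes and left 21 members unmatched. Protein-coding genes made up 87.3% of the members and 12.9% of the 33155 silent genes. Of silent protein-coding genes 5.45% were members, of silent lncRNAs 0.262% and of silent pseudogenes 0.0699%. A count threshold favours long transcripts, and the exon length of the members had a median of 5104 bases. With LINC symbols left out, 101 of 784 silent protein-coding genes with 4 to 8 kb of exon were members (12.9%), against 4 of 379 lncRNAs (1.06%) and 1 of 75 pseudogenes (1.33%). From 8 kb on, 65 of 251 silent protein-coding genes were members (25.9%), 2 of 105 lncRNAs (1.9%) and 1 of 10 pseudogenes (10%). This is a description of chosen genes.

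Member loci were also long in the genome. Protein-coding members spanned a median of 96 kb with 14 merged exons, against 10.9 kb and 5 exons in the other silent protein-coding genes and 35.1 kb and 11 exons in tested autosomal protein-coding genes. A span of at least 250 kb was found in 22.3% of the protein-coding members, 3.39% of the other silent and 6.02% of the tested protein-coding genes. A single merged exon was found in 1 protein-coding member and in 621 of 4043 other silent protein-coding genes, LINC symbols included. Counts came from exons only, so reads in introns did not enter them.

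The rest of the silent genes moved in the same direction at lower counts. In the ZMYND8 line, 399 and 374 of the 4040 other silent protein-coding genes had a count without doxorubicin, 329 and 299 at 6 h, and 1717 and 1727 at 48 h. This was 9.88% and 9.26% untreated against 42.5% and 42.7% at 48 h. Among the 27270 other silent genes that are not protein-coding, 1187 and 1314 had a count untreated and 4477 and 4269 at 48 h. The number of genes with a count in the whole table was 23435 and 23609 in untreated ZMYND8 cells and 30566 and 30350 at 48 h, at similar depth. Detection thus rose in the other silent genes as well.

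**Figure D4:**
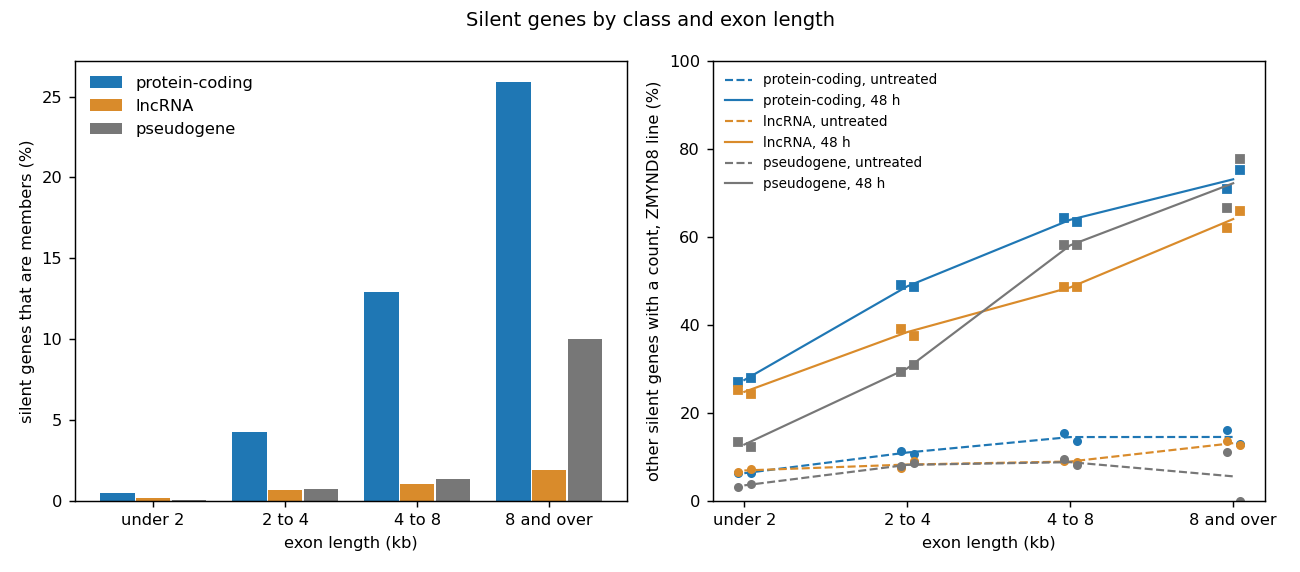
Left, share of silent genes that are members, by class and exon length in kb. Right, share of the other silent genes with a count in the ZMYND8 line, untreated (dashed, circles) and at 48 h (solid, squares), with a point for each library and a line through the mean of 2; shares at 48 h lie above untreated shares in each class and length, and the longest pseudogene bin holds 10 genes.

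Members had fewer same-strand neighbours upstream than other silent genes and more overlaps with exons on the opposite strand. No member lay within a gene on its own strand, against 6.31% of the other silent protein-coding genes. A gene on the same strand ended within 10 kb before the start in 29 members (10.9%), against 29% of the other silent protein-coding genes. Of these upstream neighbours, 10 that were not members were tested in the ZMYND8 line and 4 were called up at 48 h, beside 9.73% of all tested genes. They were C4BPB before C4BPA, CR2 before CR1, FFAR4 before PDE6C and SYT16 before SERTAD4BP, named for this call. C4BPB, a complement regulator, was already expressed, with 179 and 239 counts untreated and 1433 and 1321 at 48 h. CR2 had 0 and 0 and then 26 and 21 counts. In 41 members (15.4%) a gene on the opposite strand held the whole member, against 10.6% of the other silent protein-coding genes. Of 28 such tested genes that were not members 5 were called up, beside 10.2% of those around other silent protein-coding genes. Among them was CDH1, E-cadherin, around the antisense lncRNA ENSG00000260798, with 62 and 111 counts untreated and 494 and 509 at 48 h. The lncRNA had 15 and 14 counts at 48 h in GFP cells, and 1 and 0 before against 15 and 5 at 48 h in ZMYND8 cells. In 39 members (14.6%) a gene on the opposite strand started within 1 kb, against 9.93% of the other silent protein-coding genes. Of the 7 tested that were not members 0 were called up by edgeR, beside 7.94% for the other silent protein-coding genes. Exons on the opposite strand overlapped 81 members (30.3%), against 18.4% of the other silent protein-coding genes. Of 26 distinct tested partners that were not members 11 were called up at 48 h, beside 9.83% of the partners of other silent protein-coding genes. Over protein-coding members alone the shares were 9.44% with an upstream neighbour, 12.9% within an opposite gene, 13.3% with an opposite start and 28.8% with opposite exons. Overlapping exons leave room for reads of a partner to be counted on the other strand, and their part in the members' counts was not tested.

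Members themselves were spread over 21 of the autosomes, with 35 on chromosome 1 and 1 on chromosome 21, and 7 pairs lay within 50 kb of each other. LRRC7 and LRRC7-AS1 overlap on opposite strands, and LRRC7-AS1 had 19 and 18 counts in GFP cells and 4 and 14 in ZMYND8 cells at 48 h. On the same chromosome, PLPPR5, a phospholipid phosphatase-related membrane protein, overlaps PLPPR5-AS1, which lies 19158 bases from PLPPR4. At 48 h PLPPR5 had 21 and 25 counts in GFP cells and 7 and 5 in ZMYND8 cells, PLPPR5-AS1 had 10 and 20 and then 3 and 3, and PLPPR4 had 19 and 15 and then 6 and 8. MYO3A, a myosin of hair cells, lies 4132 bases from GAD2, which makes GABA, on the same strand. MYO3A had 13 and 18 counts in GFP cells and 7 and 7 in ZMYND8 cells, and GAD2 had 15 and 23 and then 5 and 6. RERG and PTPRO overlap on opposite strands, with 13 and 21 counts for RERG and 14 and 14 for PTPRO at 48 h in GFP cells.

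The promoters of the members stood between those of other silent and of expressed genes in CpG content. A RefSeq window matched 195 members, taking the start nearest to the gene's end in the count tables, and in 165 of them the start lay within 1 kb. The 189 protein-coding members had a median of 12 CpG dinucleotides in 300 bases. The median was 5 in 2737 other silent and 26 in 10605 other tested protein-coding genes. At least 15 CpG were found in 46% of these members, 26.1% of the other silent and 80.7% of the other tested protein-coding genes. Members with 15 or more CpG had a median of 17 counts at 48 h in the GFP line and those with 5 or fewer 16.5 counts. Members with CpG-rich promoters were longer, with a median exon length of 6636 against 3875 bases, so length and CpG content moved together and their parts were not tested. Among other silent protein-coding genes, 50.3% and 53.9% of those with 15 or more CpG had a count at 48 h in the ZMYND8 line (12.7% and 11.9% untreated), against 41.5% and 41.1% of those with 5 or fewer (6.78% and 6.64% untreated). Here too the CpG-rich genes were longer, with a median exon length of 2918 against 1786 bases, and the part of length was not tested.

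Short motifs were searched on both strands of the 195 windows. The TATA box core TATAAA occurred in 10.3% of members, 22.9% of other silent protein-coding genes and 11.6% of all 33725 autosomal RefSeq windows. The AP-1 motif TGANTCA occurred in 3.59%, 8.59% and 7.67% of these sets. An NF-kB-like motif GGNNNTTCC stood in 20% of members and 20.1% of all windows, an interferon-response-like motif GAAANNGAA in 8.21% and 8.09%, and CCAAT in 33.3% and 34.4%. These motifs can overlap in a window, and a match describes letters only.

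**Figure D5:**
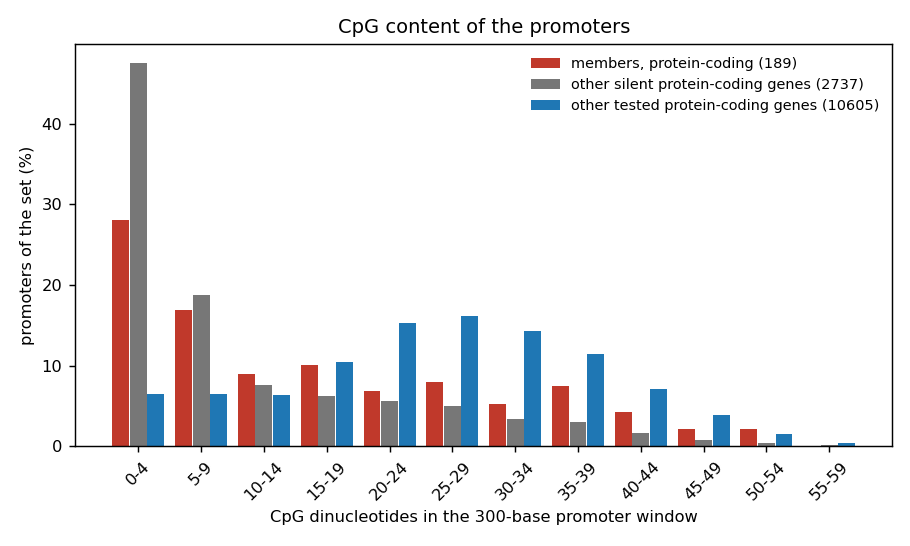
CpG dinucleotides per 300-base promoter window, as the share of promoters in each set, for protein-coding members and 2 comparison sets. The member bars fall between the other silent genes, of which most have under 10, and the tested genes, of which most have 15 or more.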

How the data were processed

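Conditions were taken from the sample labels. Per the file headers, the authors used featureCounts 1.6.4 and the exon records of GENCODE release 31 to give counts of read pairs by gene (paired, reverse-stranded setting 2, multi-mapping reads left out), and the deposited values are raw counts, neither normalized nor pooled. The build was hg38. The submitters' processing notes name HISAT2 and the paper's methods name TopHat, so the aligner is not settled.

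The members and gene lists were chosen with earlier results of these data known. Counts were scaled with TMM factors and fitted per system in edgeR 4.0.16 (R 4.3.3), 1 mean per group, with its quasi-likelihood test after filterByExpr; 18801 (inducible) and 15697 (transient) genes were tested and p-values adjusted by Benjamini-Hochberg over these. Contrasts with a GFP library at 0 or 48 h were part of the same fit, but their p-values and calls are not used, since those libraries chose the members. The spread was estimated over all libraries of a system, so the libraries that chose the members also entered the spread behind the ZMYND8-line calls. Their part in those calls was not tested. Alternatives used DESeq2 1.42.0, other scaling, filters and cutoffs, a replicate block, and each library left out. The fit was tested on simulated data. Numbers of same-numbered libraries were not taken to pair them. Folds against 0 counts are bounds at 3 counts over both libraries; ratios carry exact 95% binomial intervals on TMM-scaled totals. Libraries held 18300628 to 23724398 (inducible) and 5729294 to 24713822 (transient) counts, where 3 counts equal 0.122 to 0.168 and 0.114 to 0.572 CPM.

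Named genes were the 12 members highest in RPKM at 48 h in GFP cells, the 12 with a symbol and the smallest adjusted p in the ZMYND8 line, and every member on a list. Also named were members called up in both transient comparisons and members lower at 48 h than untreated in both ZMYND8 libraries. Of the pairs within 50 kb, the 5 with the highest summed count were named. There were 0 members with 10 counts at 6 h in both GFP libraries or 0 counts in all ZMYND8 libraries. Symbols came from an Ensembl table, gene types from GENCODE release 44 and promoters from RefSeq (GRCh38.p14). Some genes that this rule names are not reported here.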

Additional observations from a re-analysis of the deposited data

Results flagged for a closer look

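BRDT moved in opposite directions in the 2 lines. In the ZMYND8 line both libraries at 48 h lay below both untreated libraries, with a log2 difference of −0.38, while in the GFP line BRDT went from 0 counts in both untreated libraries to 22 and 15 counts at 48 h. The difference between the lines was not tested, since the GFP libraries chose the gene.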

How the results depend on the processing

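The number of members follows the threshold. It was 774 with 5 counts at 48 h, 64 with 20 counts, 406 with 1 count allowed in untreated cells, and 364 to 436 when a library was left out of the rule; it was 419 without untreated GFP replicate 1, and 436 and 414 without GFP 48 h replicates 1 and 2. Members called up in the ZMYND8 line at 48 h numbered 159 to 203 of 267 against untreated cells and 173 to 205 of 267 against 6 h when a library was left out, where the lone library of an arm is assumed to vary like the others. DESeq2 called 176 and 182 of 250. With a minimum count of 30 in the filter 24 members were tested and 23 called up in each of these 2 comparisons, fewer because fewer were tested. At 6 h against untreated cells 0 members were called up under every alternative run, though DESeq2 gave no adjusted p for 221 of 250. In the transient system 1 member was called up in each comparison. Without a filter 5 were called up with doxorubicin and 4 in the ZMYND8-labelled doxorubicin libraries, with a minimum count of 30 none (0) of 0 tested, and by unadjusted p 2 with doxorubicin. With a library left out the count was 0 to 1 with doxorubicin and 0 to 0 in the other comparison, and DESeq2, which gave no adjusted p, called 0 with doxorubicin; the cause was not tested.

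The replicate block, with numbers shared by 2 libraries per group, gave 222 members up at 48 h against untreated cells and 222 against 6 h, where the main fit gave 223 and 223. It gave 0 at 6 h and 1 in each transient comparison, the same counts as the main fit. Over all genes it raised the transient calls from 394 to 656 with doxorubicin and from 477 to 748 for the ZMYND8 label. Deviations of same-numbered libraries correlated between -0.0458 and 0.0216 in the inducible system and between 0.2083 and 0.4037 in the transient system, where each comparison has only 2 numbers and the labels tie them to nothing shared. Among named genes, ENSG00000287961 turned to a log2 fold change of -0.019 without ZMYND8 48 h replicate 1 and was 1.06 without replicate 2; 691 comparisons of a named gene with an alternative kept their side of the threshold, 65 lost the call and 4 gained it. An alternative added after the data were seen, members that pass the filter in both GFP 48 h libraries, gave 215 of 241. Depth is a limit: 10 counts set the rule, and members with few counts in the ZMYND8 line were not resolved.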
